A study of Rattus norvegicus with 4 samples.

Results

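The lipid-handling programme of Pparg was examined in NR8383, an established rat alveolar macrophage line, through 10 genes: the receptor Pparg and its targets Fabp4, Fabp5, Cd36, Lpl, Plin2, Abca1, Abcg1, Olr1 and Cidec. They were found by matching the array's transcript accessions to rat gene symbols, which placed all 10 among 16506 named genes with a measured probe. The series holds 4 one-colour arrays of total RNA, 1 per biological replicate of a single group. These cells, after 20 passages and growth in a richer serum medium, were held for 4 h in DMEM with 10% fetal bovine serum as the control condition; the labels name no further treatment. They also carry the abbreviation ALI, which is left unexpanded here. With 1 group there was no contrast between conditions, so the questions are which of these genes the line expressed and how far the replicates agreed on each. The line was founded from rat lung lavage and holds both attached and suspended cells. In bulk RNA fewer cells of a kind and less RNA per cell cannot be told apart.

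Pparg encodes a nuclear receptor that binds DNA together with a retinoid X receptor and is switched on by fatty acids and their oxidised products. Its targets take lipid into the cell, carry it through the cytosol, store it in droplets and, by way of the liver X receptors, pass cholesterol out again. In the mouse lung Pparg is needed for alveolar macrophages to mature and to clear surfactant lipid, and the same receptor drives fat cell differentiation.

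The arrays differed in brightness, and replicate 1 was the dimmest. The 75th percentile of probe signal was 83.4, 112, 126 and 167 for replicates 1 to 4 in turn. A level below is therefore the log2 ratio of a signal to that percentile of the same array, given as mean ± SD over n = 4. Between 50.9% and 58.9% of the transcript spots of an array were well above background, and no spot was saturated. Signals of different probes depend on each probe's own binding, so levels were compared between arrays and not between genes. Replicate 1 also stood farthest from the rest in general: it was the highest of the 4 arrays for 42.4% of the 8772 detected genes and the lowest for 32.8%.

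All 10 genes were detected. Detection means that, on all 4 arrays, the scanner software put most spots of a probe well above background, and 53.1% of all named genes met that call. The 12 probes of these genes all did so, and the dimmest value, Abca1 on replicate 1, was still 25.8 times the 95th percentile of that array's negative controls. In limma's one-sided test against that percentile the largest adjusted p among the 12 probes was 1.16e-09, with adjustment over all probes, and 69.4% of named genes passed that test. For a spot of these genes the scanner software's own error estimate was between 10.0% and 10.7% of the signal. The members had 8 genes with a single spot, so for those an error of 1 spot and a difference between cultures cannot be told apart on 1 array.

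**Figure D1:**
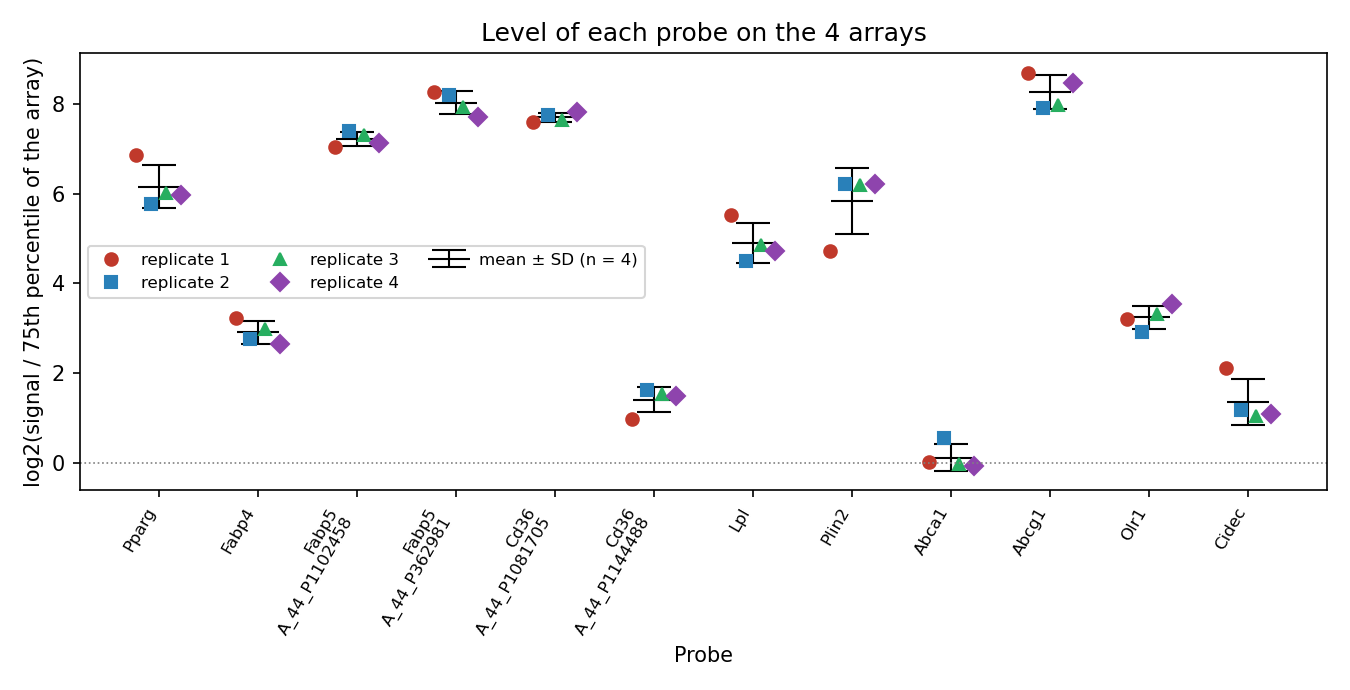
Level of each of the 12 probes on the 4 arrays, as log2 signal over the array's 75th percentile (dotted line at 0). Symbols are replicates and bars the mean ± SD; every probe lay at or above about the 75th percentile, and Plin2 on replicate 1 sat 1.49 below the mean of the other arrays.

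Pparg itself was far well above background on every array. Its single probe read processed signals of 9705, 6150, 8254 and 10472 for replicates 1 to 4. After scaling these were levels of 6.86, 5.78, 6.03 and 5.97, or 6.16 ± 0.48. Replicate 1 was the highest and lay 0.94 above the mean of the others, while replicates 2 to 4 lay close together with an SD of 0.13. Of the detected genes, 5.18% were at least as far above the others on replicate 1. Under normexp background correction the excess on replicate 1 was 0.45.

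RNA of the receptor partners Rxra and Rxrb was detected, and the relatives Ppara and Ppard missed the call. Among the other 7 receptors measured, 4 were detected on all arrays, where 53.1% of all named genes met the same call. The retinoid X receptors Rxra and Rxrb, the DNA-binding partners of Pparg, lay at -1.26 ± 0.16 and 1.27 ± 0.24. The liver X receptors Nr1h3 and Nr1h2, which sense oxysterols and switch on cholesterol efflux, lay at 6.04 ± 0.31 and 3.51 ± 0.75. Nr1h2 was low on replicate 4, at 2.41 against 3.65 to 4.05 elsewhere, and the detected spots around it had a median of -0.81 on replicate 4 relative to the other arrays. No array showed Rxrg or Ppara, the receptor of liver fatty acid oxidation, well above background, and 3 did so for Ppard. Ppara and Ppard did pass limma's test against the negative controls. Of 8 coregulators measured, 7 were detected, among them the coactivators Ncoa2 at -1.60 ± 0.19 and Crebbp at 1.97 ± 0.10, each by 1 of its 2 probes (Crebbp lay at 0.09 without replicate 1 and at -0.05 with both probes on all arrays), and Ppargc1b at -0.24 ± 0.43. Ppargc1a, the coactivator of thermogenic fat, was the exception and was well above background on no array. The coactivators Ncoa1, Med1 and Ep300 were not matched to a probe.

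Of 11 upstream genes measured, 7 were detected, and 53.1% of all named genes met the same call. In mouse alveolar macrophages granulocyte-macrophage colony-stimulating factor and transforming growth factor beta induce Pparg. Their receptor chains Csf2ra, Tgfbr1 and Tgfbr2 lay at 3.12 ± 0.15, 1.14 ± 0.40 and 3.91 ± 0.05, with Tgfbr1 detected by 1 of its 2 probes. Csf2rb, the signalling chain of the former receptor, was well above background on 3 arrays. The ligand gene Csf2, the adipocyte regulator Cebpa and Alox15, whose enzyme makes oxidised lipids that can act as Pparg ligands, were well above background on no array. That call is strict: Cebpa carried the looser positive and significant flag on all arrays, and Cebpa and Alox15 passed limma's test against the negative controls. That flag and that test took in 66.9% and 69.4% of all named genes. Tgfbr1 was lower on replicate 1, at 0.53 against 1.31 to 1.36.

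Genes that bring lipid into the cell were represented by the fatty acid transporter and scavenger receptor Cd36, the oxidised lipoprotein receptor Olr1 and the secreted lipoprotein lipase Lpl. Cd36 has 1 probe printed 10 times per array. Averaged over the spots used, it read signals of 16218, 24397, 25232 and 37839 for replicates 1 to 4, which are levels of 7.60, 7.77, 7.64 and 7.82. The spread of 0.10 between arrays was the smallest of the 12 probes. The spots of 1 array had an SD between 0.039 and 0.15, largest on replicate 1, and the spots of replicate 1 overlapped those of each other array. A second Cd36 probe with a single spot read signals of 165, 342, 366 and 472 on replicates 1 to 4. Its levels were 0.98, 1.61, 1.53 and 1.5, so it placed replicate 1 below the others by 0.57 where the repeated probe placed it below by 0.14. The annotation lists Cd36l1 and Cd36-ps1 on the same chromosome, and whether either probe also binds their transcripts was not tested.

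Lpl, which frees fatty acids from circulating triglyceride and is made by macrophages, read signals of 3835, 2525, 3666 and 4432 on replicates 1 to 4. Its levels were 5.52, 4.49, 4.86 and 4.73, or 4.90 ± 0.44. Replicate 1 was again the highest, by 0.83 over the mean of the others (0.47 under normexp correction). Of 7 other genes of lipase control measured, 5 were detected. The inhibitor Angptl4 lay at 2.90 ± 0.51 and the cofactor Apoc2 at -2.16 ± 0.10. Gpihbp1, which anchors the lipase on capillary endothelium, was well above background on no array and Apoc1 on 1.

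Olr1 read signals of 771, 842, 1254 and 1951 on replicates 1 to 4, a level of 3.24 ± 0.26. After scaling its levels were 3.21, 2.91, 3.31 and 3.54, with replicate 4 highest and replicate 2 lowest. Other uptake and lysosomal genes were also present, with 7 of 8 measured detected. The scavenger receptor Msr1 lay at 2.27 ± 0.19 and the endocytic receptor Lrp1 at 1.03 ± 0.17. Vldlr was well above background on 1 array. Fatty acid transport and activation added 6 of 7, with the transporters Slc27a1 at 3.09 ± 0.21 and Slc27a4 at 2.00 ± 0.32 and the ligase Acsl1 at 3.17 ± 0.10, but not Slc27a3, which was well above background on no array.

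Both fatty acid binding proteins of macrophages and fat cells were detected, and how many of the rest of their family were depended on the call. These small cytosolic carriers shuttle fatty acids between membranes, droplets and the nucleus. Fabp4 read signals of 780, 759, 1001 and 1049 on replicates 1 to 4, which are levels of 3.23, 2.76, 2.99 and 2.65, or 2.90 ± 0.26. Replicate 1 was highest and replicate 4 lowest. Of the 7 other family members measured, the liver form Fabp1 was detected at -2.32 ± 0.16, Fabp6 was well above background on 2 arrays, and the other 5, among them the intestinal Fabp2 and the heart form Fabp3, on none. With the looser flag of a positive and significant signal, which 66.9% of named genes carried on all arrays, 3 of the 7 were called (Fabp1, Fabp6 and Fabp12), and limma's test against the negative controls called 4, with Fabp3 added.

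Fabp5 has a pair of probes, each printed 10 times, and they ordered the arrays differently. Probe A_44_P1102458 read mean levels of 7.05, 7.40, 7.32 and 7.14 on replicates 1 to 4, lowest on replicate 1. Probe A_44_P362981 read 8.27, 8.22, 7.93 and 7.72, highest on replicate 1. The second probe exceeded the first, a gap that also holds each probe's own binding, by 1.22 on replicate 1 and by 0.82, 0.61 and 0.58 on replicates 2, 3 and 4. The SD between spots of 1 probe on 1 array was between 0.061 and 0.17. The spots of the second probe on replicates 1 and 4 did not overlap, with a lowest value of 8.02 on replicate 1 and a highest of 7.81 on replicate 4. Its spots on replicate 1 did overlap those on replicates 2 and 3, and the first probe's spots on replicates 1 and 4 overlapped. Spots of 1 array are copies from 1 culture and do not measure the spread between cultures. Averaging both probes gave a level of 7.63 ± 0.16 that hides the different order of the arrays. Under normexp correction the mean of both turned from 0.04 above the other arrays on replicate 1 to 0.24 below. The annotation also holds pseudogenes Fabp5-ps2 and Fabp5-ps3, and their part in either probe's signal was not tested.

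**Figure D2:**
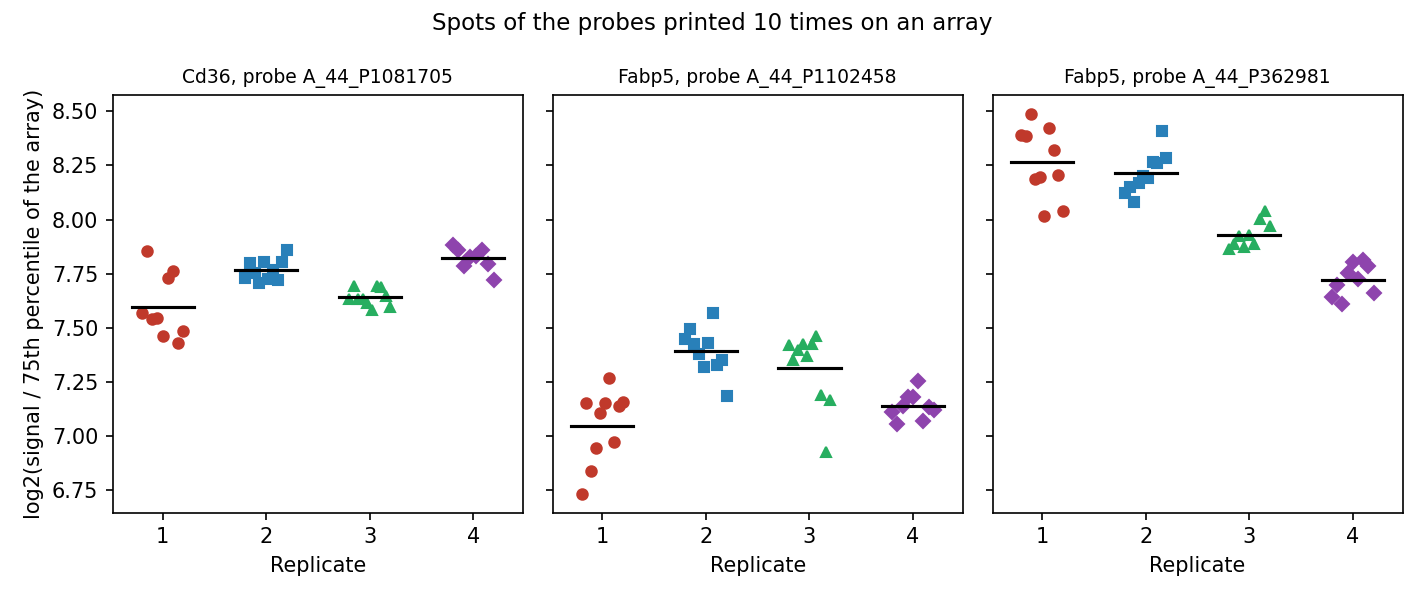
Levels of single spots of the 3 probes printed 10 times per array, as log2 signal over the array's 75th percentile, by replicate; black lines are means of the spots used. The 2 Fabp5 probes run in opposite order on replicate 1, lowest of the arrays for one and highest for the other, while the Cd36 probe varies by 0.10 (SD) between arrays.

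Among the 10 genes, the droplet protein Plin2 differed most between replicates. Plin2, the protein that coats droplets in most cells outside fat and marks lipid loading in macrophages, read a signal of 2197 on replicate 1 against 8318, 9319 and 12447 on replicates 2, 3 and 4. Its levels were 4.72 on replicate 1 and 6.21, 6.20 and 6.22 on the others, so replicate 1 lay lower by 1.49, a 2.81-fold difference, while the other arrays coincided. Only 0.399% of detected genes lay as low or lower on replicate 1. That difference was between -1.63 and -1.49 under the scalings and background corrections tried. Plin2 has a single spot, so the limit given above for such genes holds here. The detected spots around the Plin2 spot on replicate 1 had a median of 0.11 relative to the other arrays, so the low value was not shared by its surroundings.

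Cidec, which joins small droplets into large ones, moved the other way. Its signals were 359, 255, 259 and 356 on replicates 1 to 4. Its levels were 2.11 on replicate 1 against 1.18, 1.03 and 1.09, an excess of 1.0, or 2.01-fold. Its mean was 1.35 ± 0.51, and 4.09% of detected genes were at least as high on replicate 1. Of 3 other droplet genes measured, Plin4 and Cidea were detected at -1.19 ± 0.25 and 2.29 ± 0.17, and Plin5 was well above background on no array. Plin1, Plin3, Cideb and Hilpda were not matched to a probe.

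Enzymes that fill and empty the droplet were detected in 8 of 10 cases. Dgat1 and Dgat2, which make triglyceride, lay at 3.30 ± 0.11 and 1.81 ± 0.44, and Gpam, the first step of glycerolipid synthesis, at -1.54 ± 0.38 by 2 of its 3 probes. The triglyceride lipase Pnpla2, chosen after its values were seen, lay at 3.12 ± 0.03 with almost no spread. The regulators of this lipase, G0s2 and Abhd5, are named because 1 array of each stood apart from the other 3. They did so in opposite directions. G0s2, its inhibitor, read 2.95 on replicate 1 against 5.07, 4.86 and 4.80, and Abhd5, its activator, read 3.47 against 2.08, 2.20 and 2.20. On replicate 1, then, Plin2 and G0s2 were low and Cidec and Abhd5 high. With 1 culture per array, these 4 values on replicate 1 carry no test. Lipe, the hormone-sensitive lipase, was well above background on no array and Lpin1 on 1.

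**Figure D3:**
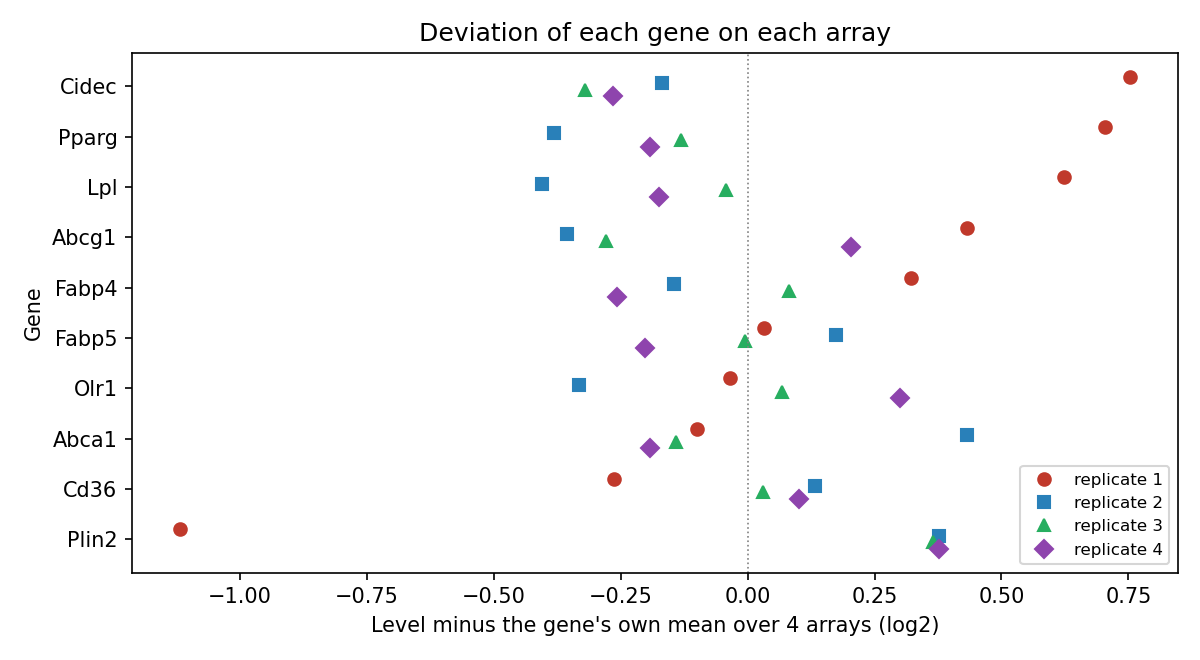
Deviation of each gene on each array from that gene's own mean over the 4 arrays, in log2 units, ordered by replicate 1 against the rest. Replicate 1 (circles) is the highest array for Cidec, Pparg, Lpl, Abcg1 and Fabp4 and the lowest for Cd36 and Plin2. Cd36 is drawn as the mean of its 2 probes, 4.56 ± 0.18. Replicate 1 was lowest on each, below the mean of the others by 0.57 on the single-spot probe and 0.14 on the repeated one.

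Cholesterol leaves macrophages through Abca1, which loads lipid-poor apolipoprotein, and Abcg1, which loads mature high density lipoprotein. Abca1 read signals of 84.1, 164, 124 and 158 on replicates 1 to 4. Its levels were 0.01, 0.55, -0.03 and -0.08, or 0.11 ± 0.29, with replicate 2 above the other arrays by 0.58. Abcg1 read signals of 34649, 26946, 32094 and 59338, or levels of 8.70, 7.91, 7.99 and 8.47, a mean of 8.27 ± 0.38. Replicates 1 and 4 were high and replicates 2 and 3 low. All 8 further genes of cholesterol storage and efflux were detected, among them Apoe, the apolipoprotein secreted by macrophages, at -1.53 ± 0.40, Soat1, which esterifies cholesterol for storage, at -0.12 ± 0.38, and Nceh1, which reverses that step, at 1.79 ± 0.33.

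Promoter sequence was looked at because Pparg and the liver X receptors bind direct repeats of a short hexamer. RefSeq windows of the GRCr8 assembly, from 250 bases before to 50 after a gene's start, were listed for 6 of the 10 genes in 8 windows, and Fabp4, Fabp5, Lpl and Abcg1 had no entry. Searched on both strands, the hexamer AGGTCA stood in 1 of the 8 windows and in 16.2% of all 33469. The Pparg-type repeat AGGTCANAGGTCA and its looser form AGGNCANAGGNCA stood in none of the 8, and in 0.0538% and 0.415% of all windows. At such shares 8 windows would seldom hold a match, and sequence outside the windows was not searched. The liver X receptor type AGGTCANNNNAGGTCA stood in none of the 8 and in 0.00598% of all. A looser form, NGGTNANNNNNGGTCA, drawn to hold the published element of the mouse and human Abca1 promoters, stood in 1 of the 8 and in 0.23% of all. That 1 window belongs to Abca1 itself, so the count cannot be compared with the share of all windows. These repeats contain the hexamer or variants of it, so the searches overlap. The 100-base stretches shown, all before the start and 5′ to 3′ on the gene's strand, are those with a match and, for Plin2, those before its 2 listed starts, without one; capitals mark the match.
Abca1, chr5:72596483-72596582, minus strand, repeat on the opposite strand from 70 to 55 bases before the start: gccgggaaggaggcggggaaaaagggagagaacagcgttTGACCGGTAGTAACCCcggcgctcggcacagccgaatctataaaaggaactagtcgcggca
Olr1, chr4:164634644-164634743, minus strand, hexamer from 147 to 142 bases before the start: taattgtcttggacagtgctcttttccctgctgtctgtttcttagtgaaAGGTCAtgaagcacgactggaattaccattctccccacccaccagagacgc
Plin2, chr5:106229019-106229118, minus strand: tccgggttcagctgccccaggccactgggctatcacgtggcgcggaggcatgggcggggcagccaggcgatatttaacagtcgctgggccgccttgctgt
Plin2, chr5:106228538-106228637, minus strand: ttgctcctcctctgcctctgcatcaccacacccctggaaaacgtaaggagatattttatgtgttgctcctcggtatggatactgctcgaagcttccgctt
A match is a run of letters, not a bound site, and no binding was measured.

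Set beside all detected genes, the 10 genes varied somewhat more between arrays, largely through replicate 1. Their median SD was 0.34, against 0.24 for the 8772 detected genes (interquartile range 0.15 to 0.36), and 8 of the 10 lay above that median. Without replicate 1 the medians were 0.18 and 0.15. Replicate 1 was the highest array for 5 of the 10 genes and the lowest for 2, near the 42.4% and 32.8% of all detected genes. Of the differences between replicate 1 and the mean of the others, 9 of 10 fell within the central 95% of detected genes, from -1.01 to 1.17, and Plin2 fell outside. By Dixon's rule, which asks whether 1 array stands apart from the other 3, Plin2, Cidec and Abca1 passed, 3 of 10 genes against 8.52% of all detected genes. For Plin2 and Cidec the array was replicate 1, which stood apart in this way for 6.55% of detected genes.

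**Figure D4:**
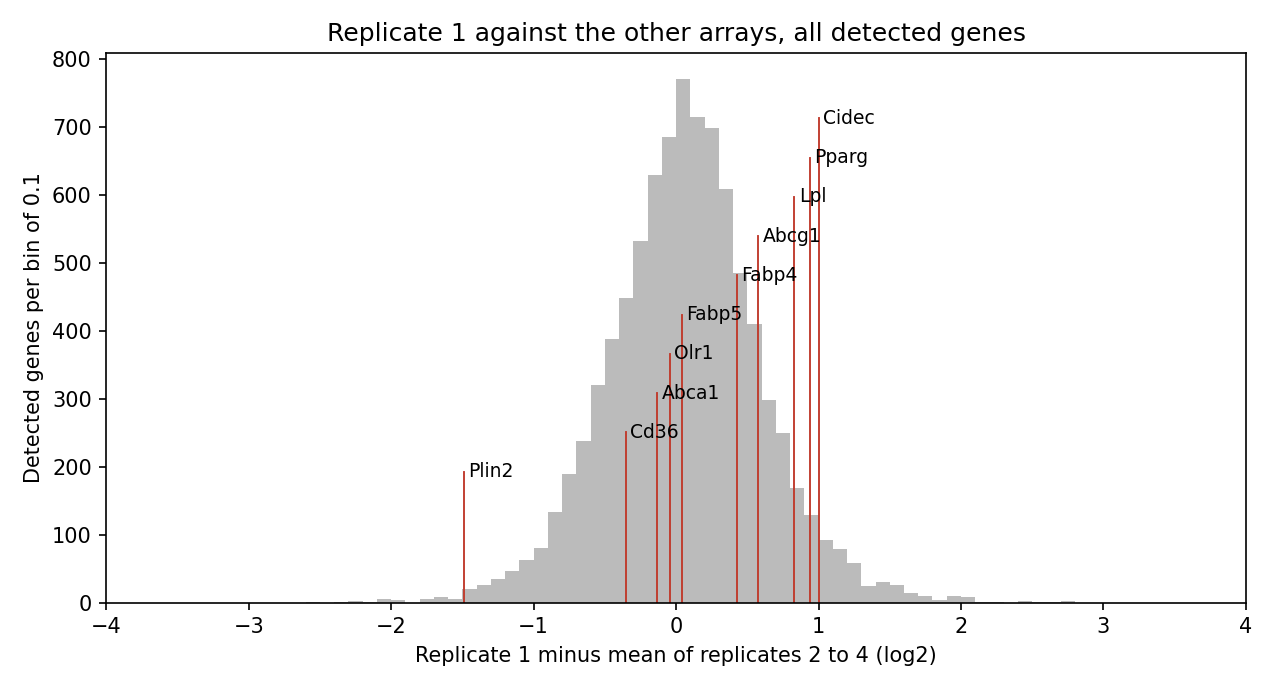
Histogram of replicate 1 minus the mean of replicates 2 to 4 (log2) over the 8772 detected genes, in bins of 0.1; vertical lines mark the 10 genes, with heights chosen for legibility. Plin2 lies at -1.49 in the lower tail, Cidec, Pparg and Lpl lie between 0.83 and 1.0, and the other 6 lie nearer the centre.

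The pattern of Pparg over the 4 arrays was followed most closely by Nup85, Decr1 and Hars2, whose deviations from their own means differed from those of Pparg by a root mean square of 0.017, 0.031 and 0.031 log2 units. In all 136 of 8771 other detected genes lay within 0.1. Lpl was among them at 0.062, and Cidec followed at 0.15. Plin2 was the farthest of the 10 genes, at 1.06, against a median of 0.42 over all detected genes. With 4 arrays of which 1 stands apart, likeness here mostly describes being high on replicate 1.

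The wider lipid programme was mostly present. Outside the 10 genes, 66 of 90 measured pathway genes in 11 lists were detected (73.3%, against 53.1% of all named genes), and 17 were well above background on no array, as were 34.4% of all named genes. Fatty acid oxidation had 11 of 14, with the carnitine transferases Cpt1a at 1.71 ± 0.19, Cpt1b at -2.09 ± 0.45 and Cpt2 at 2.98 ± 0.39. Pdk4, a kinase that restrains glucose oxidation, was well above background on no array, and Ehhadh on 3. The median SD of the detected pathway genes was 0.24, against 0.24 for all detected genes.

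Cell identity was checked because these genes are shared with fat cells. Of 9 alveolar macrophage markers measured, 6 were detected, including Cd68 at 7.44 ± 0.17, Mrc1 at 2.69 ± 0.69 and Siglec5 at -0.43 ± 0.96. By the same call 53.1% of all named genes were detected. Siglec5 read 0.73, -0.05, -0.94 and -1.44, and 1 of its 2 probes lay in a region of the slide surface that was dim on replicate 4. Marco was well above background on 1 array, Csf2rb on 3 and Car4 on none. The looser positive and significant flag and limma's test each called 8 of the 9, and 66.9% and 69.4% of all named genes. Of 9 adipocyte markers, 4 were detected: Retn at 8.43 ± 0.47, Cfd at 4.06 ± 0.23, Cidea at 2.29 ± 0.17 and Thrsp at -1.95 ± 0.54. The defining hormones of fat cells, Adipoq and Lep, were well above background on no array. The looser flag called 4 of the 9 adipocyte markers and limma's test 5. Summed over the adipocyte list, signal relative to the 75th percentile was 575 on replicate 1 against 276 to 344 elsewhere, most of it from Retn, and its part in the higher Pparg, Lpl and Cidec of replicate 1 was not tested. The alveolar macrophage sum ran from 218 to 260, most of it from Cd68. Mrc1, the mannose receptor, was higher on replicate 1, at 3.71 against 2.23 to 2.50, as was Siglec5, and the part of either in the other values of replicate 1 was not tested. None of 6 alveolar type 2 markers was detected, with Sftpb and Sftpa1 well above background on no array and Sftpc on 2, and their sum was between 0.222 and 0.313. Among 6 fibroblast markers Dcn was detected at -0.13 ± 0.37 while Col3a1 and Pdgfra missed the call on every array, with a sum between 0.818 and 1.25. The looser flag and limma's test each called 1 of the 6 type 2 markers and 2 of the 6 fibroblast markers.

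**Figure D5:**
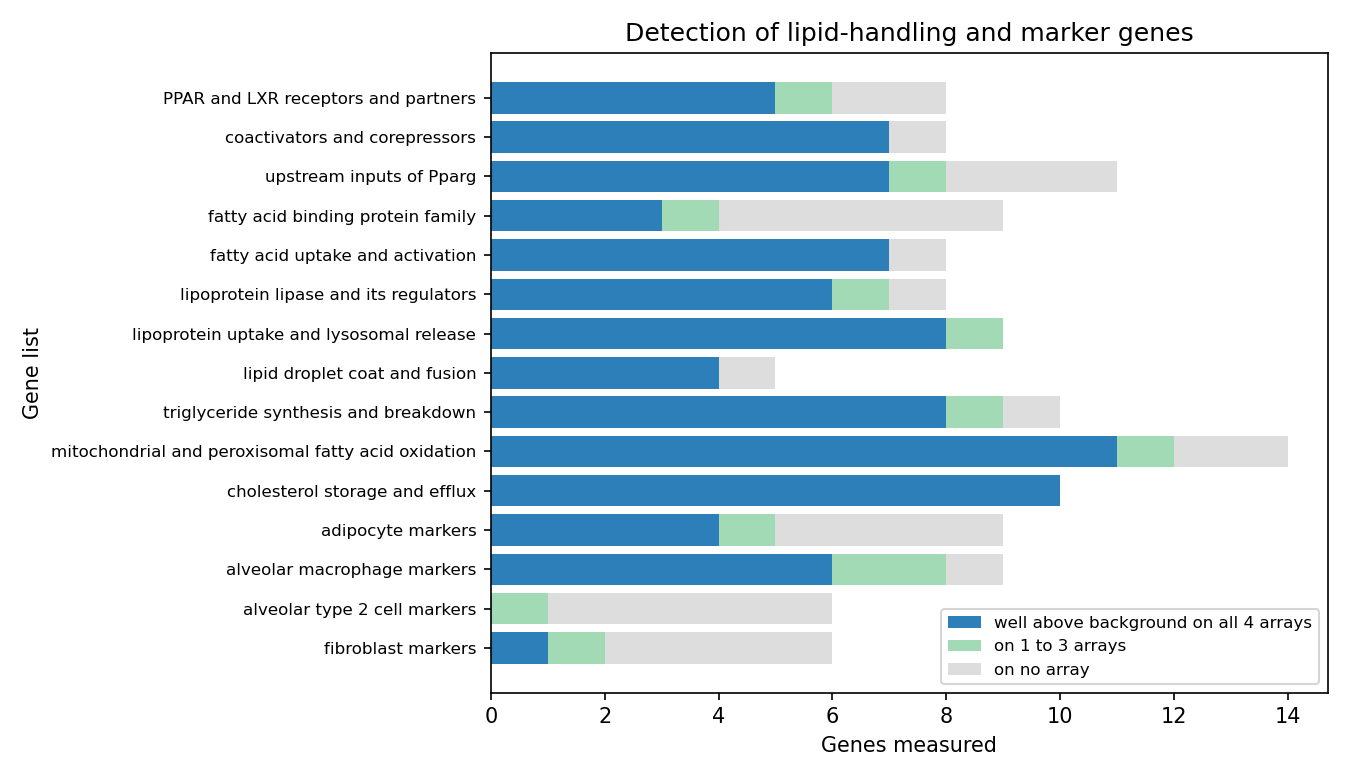
Number of measured genes of each list that were well above background on all 4 arrays, on 1 to 3 arrays or on none, with the 10 genes included where a list holds them. Cholesterol storage and efflux was complete at 10 of 10, and the binding protein family had 3 of 9.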

How the data were processed

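Total RNA of 4 cultures was labelled with Cy3 and scanned on 1 slide. Per the file headers and the submitters' processing notes, the authors quantified the scans in Agilent Feature Extraction (version 11.0.1.1). Each deposited file gives linear spot intensity values, background-handled but not scaled between arrays, with 0 or 1 flags as other columns. Genes were named by matching accessions to RefSeq (GRCr8), which named 17614 of 40539 accessions; the array was annotated on an older build, whose coordinates are not printed. Per array, 4259 control spots and between 440 and 1206 outlier spots were left out, and spots of a probe averaged, giving 45280 probes. Log2 signal minus the array's 75th percentile over probes was the level. Detected probes of a gene were averaged. No test between conditions was possible, and nothing says how the cultures were kept apart beyond the word biological. The surface region dim on replicate 4 (rows 166 to 216, columns 73 to 88), drawn around 77 detected probes more than 2 log2 units low there, held no spot of the 10 genes. The number of arrays limits the precision. Genes and lists were chosen with earlier results of these data known. Named genes were all 10 members, of each list the first 3 detected and first 2 on no array, exceptions where 4 or fewer, any list gene with 1 array past Dixon's limit, and the 3 closest to Pparg in pattern. Some genes that this rule names are not reported here. Alternatives were each replicate left out, 3 other detection calls, a percentile over detected probes, quantile normalization, normexp (offset 50) on median signals, outlier spots kept, the first probe and no filter on dim probes. The limma detection call and Dixon's rule were tested on simulated data. R 4.3.3, limma 3.58.1, the data.table package (1.17.8), Python 3.11.15, pandas 2.3.3 and matplotlib 3.10.9 were used.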

Additional observations from a re-analysis of the deposited data

Results flagged for a closer look

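In 9 of the 85 detected genes looked at, 1 array lay farther from its nearest neighbour than Dixon's limit for 4 samples, as a share of the gene's range, and 8 of these arrays were replicate 1. Chance flags about 1 gene in 20, and 8.52% of all detected genes passed the same limit, 6.55% through replicate 1. The gap was 0.992 of the range for Plin2 (low on replicate 1), 0.859 for Cidec (high on replicate 1) and 0.852 for Abca1 (high on replicate 2). Plin2 passed under each of the 7 scalings and probe rules tried, with a lowest value of 0.836, and Cidec and Abca1 under 6, falling to 0.661 and 0.810 under normexp. Among pathway genes the gap was 0.873 for G0s2, 0.932 for Tgfbr1 and 0.888 for Apoe, low on replicate 1, and 0.911 for Abhd5, 0.895 for Lpcat3 and 0.853 for Hadhb, high there. G0s2 passed under all 7 and the other 5 under 4 to 6. All of these flagged genes but Tgfbr1 have 1 probe. For them, taking the first probe or no filter on dim probes could only repeat the main values. Apoe read -2.12 on replicate 1 and between -1.38 and -1.29 elsewhere, Lpcat3, a phospholipid remodelling enzyme, 4.35 against 3.65 to 3.73, and Hadhb, of mitochondrial fatty acid oxidation, 2.14 against 1.30 to 1.42.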

How the results depend on the processing

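All 10 genes stayed detected under each detection call and with each replicate left out. The count of detected pathway genes, 66, was 74 with the positive and significant flag and 77 with limma against negative controls. Of all named genes the main call took in 53.1%, that flag 66.9% and limma 69.4%, so looser calls raised both. The pathway count was 69 with detection on at least 3 arrays, 65 with the first probe and between 66 and 68 with 1 replicate left out. The median SD of the 10 genes, 0.34, was between 0.33 and 0.35 under other scalings and background correction. Over all detected genes the median SD was 0.24 in the main setting and 0.20 under normexp. The gap was therefore wider under normexp, where the 10 genes had 0.35. With 1 replicate left out the median SD of the 10 genes was between 0.178 (without replicate 1) and 0.377. A percentile over detected probes lowered all levels, with a median shift of -3.09, and normexp gave a median shift of -0.30. After removal of that shift, 95 of 100 levels of the 10 genes under alternatives moved by less than 1 SD. The others were Fabp5, Cd36 and Olr1 under normexp, at 7.01, 4.02 and 2.60 before that removal, and Fabp5 and Cd36 with the first probe, at 7.23 and 7.71, where the probes of a gene differ. Of 750 such values of 75 other genes 50 moved, 37 of them under normexp and 12 by the choice of probes. The remaining 1 was Crebbp without replicate 1, where its second probe was detected and its level was 0.09. Many of the values that stayed could not have moved. Leaving out 1 replicate cannot shift a mean by 1 SD while the same probes are used. A shift common to all genes was removed, and the probe rules leave a gene with 1 probe unchanged. No paired analysis was possible because the series has 1 group. Abca1 had the lowest signals of the 10 genes but was detected on every array. Low signal limits the genes not well above background, for which a transcript below the limit is not shown to be absent.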
